A study of Mus musculus with 8 samples.

Results

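The genes of the mitogen-activated protein (MAP) kinase cascade were examined for binding of RelA (p65), an NF-kB subunit that activates transcription, in primary fibroblasts of mouse embryos. The group comprised the protein-coding genes on chromosomes 1 to 19 whose symbol is Mapk, Map2k, Map3k, Map4k or Mapkapk followed by digits only. Map3k7, Map3k8 and Map3k14, which feed into NF-kB itself, were left out by the rule, and 1 further gene was left out because it lies outside those chromosomes. This gave 42 genes of 20665 protein-coding genes, with 20623 others for comparison. They fall into 5 tiers: 5 Map4k genes, 14 Map3k genes, 7 Map2k genes, 13 Mapk genes and 3 Mapkapk genes.

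All cells were primary embryonic fibroblasts (MEFs) of wild-type C57BL/6 mice, cultured and serum-starved overnight. The cells received TNF at 10 ng/ml, and RelA was precipitated with the p65 antibody sc-372 at 0, 0.5 and 3 h. Each of these 3 times had 2 libraries, and 2 input DNA libraries brought the total to 8. The labels do not say from which embryos or cultures the replicate libraries came, nor at which time the input DNA was taken. The values analysed were 1 list of 9829 peaks on the mm10 genome, of which 9688 lay on chromosomes 1 to 19, each with a start and an end and no height, score or library. Times, replicates and input could therefore not be compared, no spread over replicates exists here, and the sequencing depth behind a peak is not known. A peak list holds no expression, so the cells could not be checked against fibroblast markers, and which cascade genes the cells transcribe is not known from these values.

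MAP kinase cascades pass a signal down a chain of kinases, each of which phosphorylates the next. Map4k kinases act at the top on Map3k kinases, these act on Map2k kinases, and Map2k kinases activate the MAP kinases themselves, which belong to the ERK, JNK, p38 and ERK5 types and to a few atypical types. The Mapkapk kinases lie below, as substrates of p38 and related kinases. In fibroblasts TNF activates the JNK and p38 routes beside NF-kB, and p38 acting through the kinase MK2, the product of Mapkapk2, stabilises mRNAs of inflammatory mediators.

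RelA peaks lay at 17 of the 42 cascade genes (40.5%, Wilson 95% interval 27.0 to 55.5%) when a peak centre was required inside the gene or within 10 kb of it, beside 23.6% of the other protein-coding genes. The 17 genes were Map4k2, Map4k3 and Map4k4, the Map3k genes Map3k3, Map3k4, Map3k10, Map3k11, Map3k13 and Map3k19, the Map2k genes Map2k2, Map2k3 and Map2k6, the MAP kinase genes Mapk3, Mapk6 and Mapk14, and Mapkapk2 and Mapkapk3. A peak centre lay inside 11 genes (26.2%, interval 15.3 to 41.1%), beside 14.9% of other genes. Within 1 kb of a gene end, a peak was found at 5 genes (11.9%, interval 5.19 to 25%), beside 6.54% of other genes. With the window widened to 50 kb, 25 genes had a peak (59.5%, interval 44.5 to 73.0%), beside 44.3% of other genes, and the interval began just above that share. With the narrower peaks left out, those under 687 bp, 11 genes had a peak inside or within 10 kb, beside 14.6% of other genes. No test was made of these differences: the intervals cover counting error only, and genes of one list are not independent draws.

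**Figure D1:**
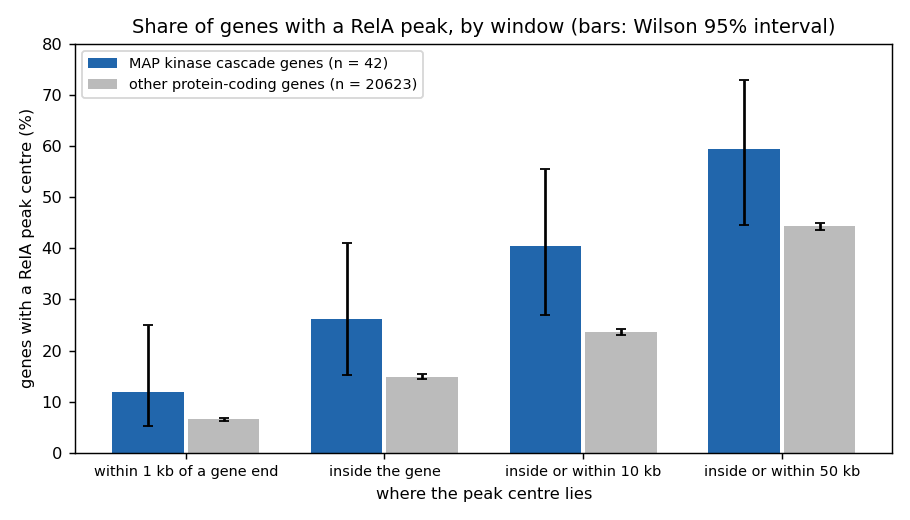
Percentage of genes with a RelA peak centre (y axis) in each of 4 windows (x axis), for the 42 MAP kinase cascade genes (blue) and 20623 other protein-coding genes (grey). Bars are shares and error bars Wilson 95% intervals, which cover counting error only. The cascade genes stand at 40.5% against 23.6% of other genes for a peak inside the gene or within 10 kb and at 59.5% against 44.3% within 50 kb.

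The 25 peaks at these 17 genes were all different peaks, 15 of them inside a gene and 10 outside. A single peak was found at 11 genes, 2 peaks at 4 genes and 3 peaks at Map4k4 and Map2k6. In all, 6 of 42 genes (14.3%) had 2 or more, beside 6.74% of other genes. Peaks at cascade genes were of ordinary width, with a median of 706 bp (range 445 to 1179 bp), beside 687 bp for the 9804 other peaks. The widest, 1179 bp, lay inside Map2k6 and exceeded 96.9% of all peaks.

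Measured from the nearer gene end, the nearest peak centre lay at a median of 30.9 kb from the 42 cascade genes, beside 67.3 kb for other genes. Map4k2 was the closest, at 0.079 kb, and Map3k5, at 322 kb, was among the farthest. Next to the 10 kb limit, the Map3k4 peak outside the gene stood at 9.21 kb, while the closest genes left without a peak were Mapk4 at 13.5 kb and Map4k1 at 19.4 kb.

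**Figure D2:**
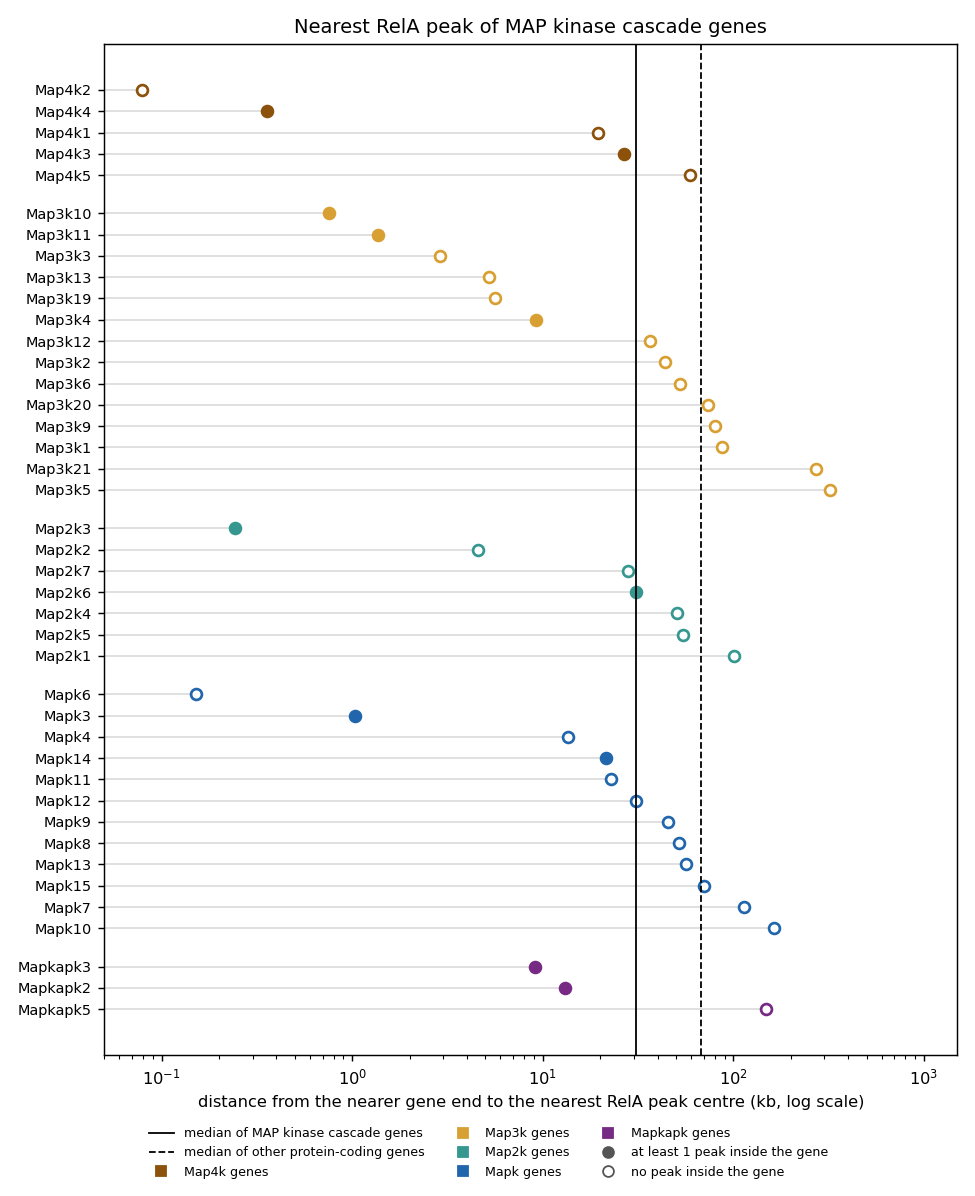
Distance from the nearer end of the cascade genes named in the text to the nearest RelA peak centre (x axis, kb, log scale), with genes in rows grouped by tier from Map4k to Mapkapk. Filled points are genes with at least 1 peak inside, open points genes with none, the solid line is the median of the 42 genes (30.9 kb) and the dashed line that of other protein-coding genes (67.3 kb). Every tier has points on both sides of the solid line, and the points drawn run from 0.079 kb at Map4k2 to 322 kb at Map3k5.

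Gene length bears on these counts, because a long gene offers more sequence in which a peak can fall, and the cascade genes were long, with a median of 42.9 kb beside 17.4 kb for other genes. Among genes under 20 kb, 5 of 13 cascade genes (38.5%) had a peak inside or within 10 kb, beside 14.4% of other genes. From 20 to under 50 kb the count was 5 of 9 (55.6%), beside 23.8%. From 50 to under 100 kb it was 3 of 10 (30.0%), beside 34.0%, and at 100 kb or more it was 4 of 10 (40.0%), beside 56.8%. Below 50 kb the share was thus 10 of 22 (45.5%, Wilson 95% interval 26.9 to 65.3%), beside 17.3% of other genes. At 50 kb or more it was 7 of 20 (35%, interval 18.1 to 56.7%), beside 45.1%. The share of cascade genes thus stood above that of other genes in both classes under 50 kb and below it in both classes of 50 kb or more, where the intervals included the share of other genes. The 6 genes of at least 100 kb with no peak inside or within 10 kb were Mapk10 (304 kb), Map2k5 (218 kb), Map3k5 (209 kb), Map3k20 (157 kb), Mapk4 (137 kb) and Map2k4 (100 kb).

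**Figure D3:**
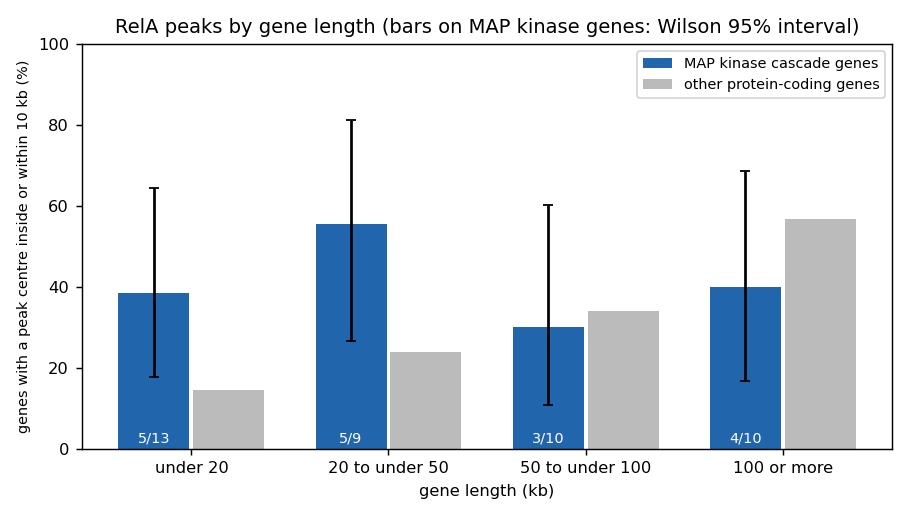
Percentage of genes with a RelA peak centre inside or within 10 kb (y axis) in 4 classes of gene length (x axis, kb), for MAP kinase cascade genes (blue, counts at the foot of each bar) and other protein-coding genes (grey). Error bars are Wilson 95% intervals. The grey bars climb with length to 56.8%, whereas the blue bars do not, standing at 38.5, 55.6, 30.0 and 40.0%.

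At the top of the cascade, 3 of the 5 Map4k genes (60.0%, Wilson 95% interval 23.1 to 88.2%) had a peak inside or within 10 kb, beside 23.6% of other genes, a share within that interval. Map4k2 (chromosome 19, 6340990 to 6355619) encodes a kinase that acts on the JNK route. Its peak, from 6340615 to 6341208, was centred 0.079 kb outside the gene and 0.017 kb from the end of the neighbouring gene Men1, so by position the peak counts for both genes. Map4k4 (chromosome 1, 39900902 to 40026310), which encodes the kinase HGK, had 3 peaks. One of 642 bp was centred 0.359 kb outside a gene end, one of 715 bp lay inside at 23.1 kb from an end, and one of 730 bp lay 7.33 kb outside the gene. A further peak, 1071 bp wide, stood 11.3 kb outside the gene. Map4k3, the gene of the kinase GLK, held a 584 bp peak inside, 42.5 kb from its 5′ end. Map4k1, which encodes the kinase HPK1 of blood cells, had none within 10 kb, and its nearest peak, at 19.4 kb, lay 0.287 kb from the end of the actinin gene Actn4. The nearest peak of Map4k5 was at 59.4 kb.

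Transcription start sites from the RefSeq promoter table of GRCm38.p6, the assembly behind mm10, were matched to 35 of the 42 genes. Genes without an entry included Map3k2, Map3k19, Map4k4, Mapk3, Mapk4 and Mapk15. A peak centre lay within 1 kb of a start site at 5 of the 35 genes (14.3%, Wilson 95% interval 6.26 to 29.4%), beside 6.82% of 16422 other genes. Where a gene had several listed start sites, the one closest to a peak was used, and the cascade genes had 48. These shares were not adjusted for the number of start sites per gene. The 250 bases before each of these 5 start sites are shown because these start sites were the closest to a peak centre among the 35 genes. They run 5′ to 3′ in the direction of transcription, with motif matches in capitals and no capitals where no match was found.

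Map4k2, chr19:6340910-6341159, plus strand, peak centred 249 bp before the start site: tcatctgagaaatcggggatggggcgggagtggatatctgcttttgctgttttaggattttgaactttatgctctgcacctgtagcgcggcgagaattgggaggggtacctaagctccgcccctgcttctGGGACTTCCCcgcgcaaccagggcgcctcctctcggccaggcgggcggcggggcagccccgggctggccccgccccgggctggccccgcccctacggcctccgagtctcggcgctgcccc

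Mapk6, chr9:75410017-75410266, minus strand, peak centred 152 bp before the start site: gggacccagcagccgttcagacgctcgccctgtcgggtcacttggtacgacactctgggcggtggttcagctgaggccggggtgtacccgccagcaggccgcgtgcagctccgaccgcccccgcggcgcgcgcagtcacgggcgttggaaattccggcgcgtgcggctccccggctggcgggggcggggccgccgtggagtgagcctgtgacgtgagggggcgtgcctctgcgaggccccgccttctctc

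Map2k3, chr11:60931804-60932053, plus strand, peak centred 243 bp before the start site: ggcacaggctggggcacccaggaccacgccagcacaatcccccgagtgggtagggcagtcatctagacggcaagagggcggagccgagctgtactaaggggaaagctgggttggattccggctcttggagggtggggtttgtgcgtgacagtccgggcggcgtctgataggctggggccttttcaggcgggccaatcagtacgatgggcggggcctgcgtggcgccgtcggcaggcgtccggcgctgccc

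Map3k11, chr19:5688881-5689130, plus strand, peak centred 648 bp after the start site: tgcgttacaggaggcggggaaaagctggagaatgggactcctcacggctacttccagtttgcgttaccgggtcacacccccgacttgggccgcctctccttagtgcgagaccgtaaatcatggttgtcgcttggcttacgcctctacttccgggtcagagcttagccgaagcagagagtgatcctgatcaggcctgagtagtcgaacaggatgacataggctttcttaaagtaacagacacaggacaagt

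Map3k10, chr7:27674582-27674831, minus strand, peak centred 702 bp after the start site: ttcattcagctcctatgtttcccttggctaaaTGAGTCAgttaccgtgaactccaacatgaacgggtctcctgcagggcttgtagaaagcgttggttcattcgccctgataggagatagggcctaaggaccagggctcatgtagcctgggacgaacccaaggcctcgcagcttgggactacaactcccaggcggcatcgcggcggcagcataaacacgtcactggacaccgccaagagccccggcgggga

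The windows of Map4k2 and Mapk6 lay wholly under a peak (250 of 250 bases), and that of Map2k3 nearly so (230 bases). The windows of Map3k11 and Map3k10 shared no base with a peak, since there the peak lay after the start site. Both strands were searched for the 10-base kappaB consensus, the sequence NF-kB dimers bind, which begins with GGG and ends with CC, and for TGANTCA and TGACGTCA, the sites of AP-1 and of CREB and ATF factors. None of these motifs contains another. In the Map4k2 window, capitals mark GGGACTTCCC, a kappaB match from base -120 to base -111 before the start site, its first base 129 bp from the peak centre. In the Map3k10 window, capitals mark a match to the AP-1 motif, from base -218 to base -212. The other 3 windows held no match, which says only that these letters do not occur there. Over the 35 genes, a kappaB match stood before a start site of 3 genes (8.57%), Map4k1, Map4k2 and Mapk7, beside 9.27% of other genes and 8.06% of all 20085 promoter windows. TGANTCA stood at 3 genes, Map2k6, Map2k7 and Map3k10 (8.57%, beside 7.28% of other genes and 6.18% of windows). TGACGTCA stood at Mapk10 alone (2.86%, beside 2.27% of other genes and 1.98% of windows). The median G and C content was 62.8% over the 48 windows of cascade genes, beside 56.0% over all windows.

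Of the 14 Map3k genes, 6 had a peak inside or within 10 kb (42.9%, Wilson 95% interval 21.4 to 67.4%, beside 23.6% of other genes). Their median length was 69.0 kb, and 45.1% of other genes of 50 kb or more had a peak. The tier ran from 14.5 to 209 kb, so that class is not matched to it. Peaks near the 5′ end were found at genes of the mixed-lineage kinases, which act mainly on the JNK route. Map3k10 (chromosome 7, 27656375 to 27674630), which encodes MLK2, held an 806 bp peak from 27673477 to 27674282, 0.751 kb inside its 5′ end and 0.782 kb from the end of the zinc finger gene Zfp607b. Map3k11 (chromosome 19, 5688411 to 5702865), which encodes MLK3, held an 839 bp peak from 5689360 to 5690198, 1.37 kb inside its 5′ end and 0.776 kb from the end of Pcnx3. Map3k11 is also a neighbour of Rela: a 759 bp peak 39.4 kb upstream of Map3k11 lay 0.869 kb from the end of Rela. The other genes of this family, Map3k9 (MLK1) and Map3k21 (MLK4), had their nearest peaks at 79.7 and 272 kb.

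Among the MEKK genes, Map3k4 (MEKK4) held a 550 bp peak inside, 27.9 kb from its 5′ end, and an 806 bp peak 9.21 kb upstream. The peak counted for Map3k3 (MEKK3), 594 bp wide, lay 2.88 kb beyond its 3′ end within the annotated limits of Limd2 and of Gm10840, whose end was 0.153 kb away. Map3k1 (MEKK1) and Map3k2 (MEKK2) had no peak within 10 kb, with the nearest at 87.6 and 43.9 kb. Map3k13, the gene of the leucine zipper kinase LZK, had a 502 bp peak 5.23 kb upstream of the gene. That peak was 73.1 kb before the 1 start site listed for it, which lies inside the gene. The related kinase gene Map3k12 (DLK) had its nearest peak at 36.5 kb. Map3k19 had a 544 bp peak 5.63 kb outside the gene. Genes of the stress-sensing kinases ASK1 (Map3k5), ASK2 (Map3k6) and ZAK (Map3k20) had no peak within 10 kb, with the nearest at 322, 52.3 and 73.8 kb. Of these, ASK2 and ZAK lay near the median of other genes, 67.3 kb. ASK1 acts in TNF and oxidative stress signalling upstream of JNK and p38.

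In the Map2k tier, 3 of 7 genes had a peak (42.9%, interval 15.8 to 75%, beside 23.6%). Map2k3 (chromosome 11, 60932054 to 60952811) and Map2k6 (chromosome 11, 110399102 to 110525522) encode MKK3 and MKK6, the activators of p38. At Map2k3, a 445 bp peak from 60931589 to 60932033 was centred 0.243 kb upstream and ended within the promoter shown above. It was one of the narrowest, since only 2.44% of all peaks were narrower. A second, 586 bp wide, lay 3.43 kb inside. Map2k6 held 3 peaks inside, of 654, 1179 and 655 bp, at 30.9, 40.3 and 51.3 kb from its 5′ end. None of them was close to the 3 listed start sites of Map2k6, the nearest being 28.1 kb away. The peak of Map2k2, which encodes the ERK activator MEK2, was 719 bp wide and lay 4.59 kb beyond the 3′ end, with the next gene, Zbtb7a, 5.93 kb away. Map2k1 (MEK1), its partner, had its nearest peak at 101 kb. The activators of JNK, Map2k4 (MKK4) and Map2k7 (MKK7), had nearest peaks at 50.9 and 28.0 kb, the second of these 0.032 kb from the end of Timm44. Map2k5 (MEK5), the activator of ERK5, had its nearest at 54.4 kb.

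The Mapk tier had peaks at 3 of 13 genes (23.1%, Wilson 95% interval 8.18 to 50.3%), a share next to the 23.6% of other genes. Mapk6 (chromosome 9, 75386782 to 75410016), which encodes the atypical kinase ERK3, had a 754 bp peak from 75409792 to 75410545 over its promoter, centred 0.152 kb upstream. Mapk3 (chromosome 7, 126759626 to 126765816), which encodes ERK1, held a 706 bp peak from 126760316 to 126761021, 1.04 kb from a gene end. Mapk14 (chromosome 17, 28691342 to 28748405), which encodes p38 alpha, the main p38 kinase of inflammatory signalling, held a 723 bp peak from 28712362 to 28713084, 21.4 kb from its 5′ end. The other p38 genes had no peak within 10 kb, with the nearest at 22.8 kb for Mapk11 (p38 beta), 30.9 kb for Mapk12 (p38 gamma) and 56.6 kb for Mapk13 (p38 delta). Mapk11 and Mapk12 lie 0.904 kb apart, and the same 2 peaks inside the plexin gene Plxnb2 were their nearest. Mapk13 lies 20.9 kb from Mapk14. The JNK genes Mapk8, Mapk9 and Mapk10 had nearest peaks at 51.7, 45.2 and 164 kb. Mapk7 (ERK5) was 114 kb from a peak, Mapk15 (ERK7 or ERK8) 70.1 kb and Mapk4 (ERK4) 13.5 kb.

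At the bottom of the cascade, 2 of 3 Mapkapk genes had peaks (66.7%, interval 20.8 to 93.9%, beside 23.6%), Mapkapk2 and Mapkapk3. The exception was Mapkapk5 (PRAK), with its nearest at 149 kb. Mapkapk2 (chromosome 1, 131053700 to 131097871) held peaks of 1002 bp, from 131083560 to 131084561, and 875 bp, from 131070338 to 131071212, at 13.8 and 27.1 kb from its 5′ end. These were wider than 91.4 and 82.0% of all peaks, and a further peak of 705 bp stood 13.1 kb upstream. The nearest other gene ends lay 44.4 kb (Dyrk3) and 45.8 kb (Il10, the gene of interleukin-10) from the peaks inside. Mapkapk3 (chromosome 9, 107254927 to 107289877) encodes a closely related kinase and held peaks of 775 and 532 bp, 11.1 and 25.9 kb from its 5′ end. A 544 bp peak 16.4 kb upstream of Mapkapk3 lay 3.52 kb from the end of Cish, a cytokine signalling inhibitor gene. With 3 to 14 genes a tier, the intervals of all 5 tiers overlapped and all of them included the 23.6% of other genes, so no difference between tiers could be called. The 23.6% covers genes of all lengths, and the tiers differed in length. The median was 89.4 kb for Map4k, 69.0 kb for Map3k, 67.8 kb for Map2k and 23.2 kb for Mapk genes. Of other genes of 50 kb or more, 45.1% had a peak, above the Map3k and Map2k shares and below that of Map4k. That class was chosen by the tier medians and is not a matched comparison. These tiers also hold genes under 50 kb, the shortest of 14.6 kb in Map4k, 14.5 kb in Map3k and 9.16 kb in Map2k. The Mapk genes ran from 5.42 to 304 kb, so no single length class fits that tier. Of other genes, 14.4% of those under 20 kb and 23.8% of those from 20 to under 50 kb had a peak. The Mapkapk genes, of 20.8 to 44.2 kb, had a share above that 23.8%. Whether length explains the tier shares was not tested.

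Sorted by the MAP kinase they lead to, a grouping chosen after these values had been seen and therefore given without a test, 5 of 8 genes of the p38 route had a peak inside or within 10 kb (62.5%, Wilson 95% interval 30.6 to 86.3%), and 0 of 5 genes of the JNK route (interval 0 to 43.4%), beside 23.6% of other genes. All 5 of those p38 route genes, Map2k3, Map2k6, Mapk14, Mapkapk2 and Mapkapk3, had peaks inside the gene, and only Map2k3 also had one within 1 kb of a gene end. Among other genes, 14.9% had a peak inside. The share was 14.1% from 20 to under 50 kb, the class of Map2k3, Mapkapk2 and Mapkapk3. It was 26.9% from 50 to under 100 kb, the class of Mapk14, and 52.9% at 100 kb or more, the class of Map2k6. Of the 9 peaks inside, 3 lay in Map2k6, which is 126 kb long. The other genes of the route, Mapk11, Mapk12 and Mapk13, had no peak inside or within 10 kb. The JNK genes counted were Map2k4, Map2k7, Mapk8, Mapk9 and Mapk10. The median length was 27.9 kb for the p38 route and 69.5 kb for the JNK route. Of other genes, 23.8% from 20 to under 50 kb and 34.0% from 50 to under 100 kb had a peak inside or within 10 kb. Both routes also hold genes outside the class of their median, such as Mapk11 at 7.12 kb and Mapk10 at 304 kb. Whether length explains the route counts was not tested. The Map4k and Map3k genes, which feed several routes, and Mapkapk5 were not placed. Membership was thus uneven. Among the genes not placed, Map4k2, Map3k10 and Map3k11, described above as acting on the JNK route, had peaks. Map3k9 and Map3k21, of the same family as Map3k10 and Map3k11, had none within 10 kb. The p38 route included the downstream kinase genes Mapkapk2 and Mapkapk3, whereas the JNK route included no gene below the MAP kinases. Map2k4 can also activate p38, and Mapkapk5 is a substrate of p38 as well as of atypical MAP kinases. With both added, which was tried after the values were seen, the p38 count was 5 of 10 genes (50%, interval 23.7 to 76.3%). Of the ERK route, Map2k2 and Mapk3 had a peak and Map2k1 had none. The ERK5 route had peaks at 0 of 2 genes and the atypical kinases at Mapk6, 1 of 3. The intervals of the p38 and JNK routes overlapped, from 30.6 to 43.4%, and with peaks deep inside genes not counted, 2 of the 8 p38 route genes (25%) had a peak within 10 kb of an end, beside 17.6% of other genes. Map2k2 and Mapk3 still had one.

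**Figure D4:**
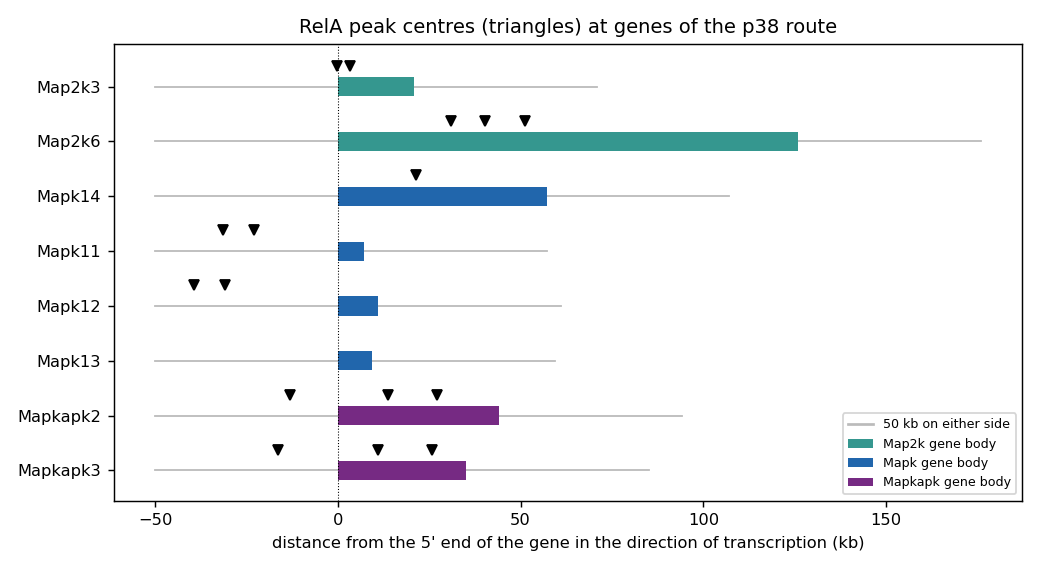
The 8 genes of the p38 route (rows), drawn to scale from the 5′ end of each gene in the direction of transcription (x axis, kb). Coloured bars are gene bodies, grey lines reach 50 kb on either side and triangles are RelA peak centres. Map2k6 carries 3 peaks inside, Mapkapk2 and Mapkapk3 carry 2 each, Map2k3 and Mapk14 carry 1 each, and the peaks drawn upstream of Mapk11 and Mapk12 are the same 2 peaks.

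The position of peaks relative to transcription could be read at genes with a promoter entry. Of the 20 peaks inside or within 10 kb of such genes, 13 lay inside the gene, 5 upstream and 2 downstream. At 3 of the 25 peaks, those of Map4k2, Map3k3 and Map3k11, another protein-coding gene had the nearer end. A further 8 genes gained their first peak between 10 and 50 kb, and for 7 of them that peak lay in or nearest to another gene. The exception was Mapk4.

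Other genes of the pathway were read from lists written with earlier results of these data known, so their counts are descriptions beside the same 23.6%. Of 16 genes for scaffolds and regulators, which hold cascade kinases together, 10 (62.5%) had a peak inside or within 10 kb. The closest to an end were Ksr1 (0.363 kb, 3 peaks inside), the scaffold of the Raf and ERK route, the beta-arrestin gene Arrb1 (0.664 kb) and Mapk8ip1 (3.76 kb), the scaffold gene of JNK. Of 9 genes for MAP kinase phosphatases, which switch MAP kinases off, 5 (55.6%) had one, with Dusp5 (0.089 kb), Dusp6 (0.224 kb) and Dusp8 (0.418 kb) the closest. Their median length was 12.3 kb, far below the 45.0 kb of the scaffold genes.

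Of 17 genes of the Ras and Raf module, which starts the ERK route, 6 (35.3%) had a peak, and Nras (0.211 kb), Rras (0.393 kb) and the adaptor gene Grb2 (2.69 kb) were the closest. The median length of this list was 62.9 kb, and 34.0% of other genes of 50 to under 100 kb had a peak. The list also holds shorter genes, such as Rras at 3.71 kb, so that class is not matched to it. Other kinases of the STE20 family, to which the Map4k kinases belong, had peaks at 4 of 7 genes (57.1%), namely Taok2 at 3.61 kb, Mink1 at 18.7 kb and Taok3 at 38.7 kb among the closest, the last 2 with peaks inside the gene. These 7 genes were long as well, with a median of 96.2 kb. Kinases activated by ERK or p38 other than the Mapkapk genes had peaks at 3 of 6 genes, Mknk2 (0.296 kb), Mknk1 (9.90 kb) and Rps6ka2 (18.7 kb, inside). Among transcription factor genes whose products MAP kinases or their effector kinases phosphorylate, 5 of 14 (35.7%) had one, the closest being Creb1 (0.145 kb), Ddit3 (0.603 kb) and Elk3 (1.27 kb, 3 peaks inside). Within 1 kb of a gene end, 1 of the 14 Map3k genes described here, Map3k10, had a peak (7.14%, beside 6.54% of other genes). Inside or within 10 kb, 6 of the 14 had one. All 3 of the Map3k genes that the rule left out, Map3k7, Map3k8 and Map3k14, had a peak in either window. Those 3 act in NF-kB signalling, and earlier results of these data were known when the rule was written.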

How the data were processed

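Per the labels' protocols, RelA ChIP-seq used chromatin fixed first with disuccinimidyl glutarate and afterwards with formaldehyde, so proteins held to DNA by other proteins can also be recovered. The submitters' processing notes name MACS2, deepTools, Picard 1.13, SAMtools, Bowtie2 2.3 and cutadapt 1.9.1, with the build mm10. Not given in the sources used here: what each tool did, the threshold for a peak, how input was used and whether libraries were pooled. As deposited by the authors, the values are peak starts and ends in base pairs. No column holds a library, so depth is unknown and no library entered a comparison. Starts were converted to count from 1.

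Genes came from the RefSeq table of GRCm38.p6 and start sites and sequences from its promoter table. A gene was counted when a peak centre lay inside it, inside it or within 10 or 50 kb of it, or within 1 kb of either end, and shares carry Wilson 95% intervals for counting error. No test was run. Counting was checked on simulated peaks (Python 3.11.15, pandas 2.3.3, SciPy 1.17.1). The members and lists were chosen with earlier results of these data known. Every cascade gene is named but 1, which is counted and not reported here, as are, in each other list, the 3 genes with a peak that were closest to it at a gene end. Genes named as neighbours of a peak were named after their values were seen.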

Additional observations from a re-analysis of the deposited data

How the results depend on the processing

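With peaks below the median width of 687 bp left out, which kept 4917 of 9829 peaks, the cascade genes with a peak numbered 11 at 10 kb (17 with all peaks), 16 at 50 kb (25) and 2 within 1 kb of an end (5). The shares were then 26.2% beside 14.6% of other genes at 10 kb and 38.1% beside 29.4% at 50 kb. Within 1 kb of an end the share was 4.76%, next to the 4.29% of other genes. At 10 kb, the Map4k tier then had 1 (3) and the Map3k tier 3 (6). Giving each peak to 1 gene only left 16 cascade genes at 50 kb (38.1%, beside 22.2% of other genes). Counting gene ends alone, without peaks deep inside genes, left 1 Mapkapk gene (2) and 2 genes of the p38 route (5) at 10 kb. All other counts of the whole group, tiers and routes stayed within 1.5 times under these settings, any overlap in place of the centre, merging of peaks within 1 kb, a 5 kb window in place of 10 kb, a 2 kb window in place of 1 kb, and Map2k4 and Mapkapk5 added to the p38 route. The route counts were added after seeing the data. At 10 kb the share of cascade genes was 1.71 times that of other genes, and 1.69 to 1.88 times under the alternatives. No paired analysis was possible because the peak list carries no values per library, and for the same reason no replicate could be left out.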
